A study of Rattus norvegicus with 9 samples.

Results

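The regions described here are stretches of the rat genome in which RNA of the heart was assembled into transcripts far from any annotated gene. They were taken from transcripts of at least 200 nt that the submitters' assembler built outside every reference transcript span, merged where they overlapped over the 9 libraries. A region was kept when it lay more than 10 kb from the nearest reference span and had a rescaled level of 1 FPKM (fragments per kilobase of transcript, scaled to sequencing depth) or more in all 3 libraries of at least 1 group. Of 16921 assembled regions outside annotated spans, 812 were kept. The members were thus chosen by measured levels, so the groups in which a region passed are a description and carry no test. FPKM is rescaled here so that the median ratio between libraries over 13167 loci is 1, since each deposited library carried its own constant.

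The study sequenced RNA of the Sprague-Dawley rat heart in 3 groups of 3 libraries. The sham group was adult left ventricle after a sham operation. The TAC group was adult left ventricle after transverse aortic constriction, a banding of the aorta that loads the ventricle with pressure. The fetal group was whole ventricle at embryonic day 18, with libraries titled by litter. The labels do not say that the 3 adult libraries of a group came from separate animals, so a p-value here measures the spread between these libraries. The fetal samples were extracted with Trizol and the adult ones on Qiagen columns, and age, ventricle sampled and kit cannot be told apart. In ventricle, which holds many cell types, fewer cells of a type and less RNA per cell cannot be told apart either.

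Much of a mammalian genome outside protein-coding genes is transcribed into long non-coding RNAs, many of them spliced and restricted to a tissue or a stage. Some act where they are made: Airn, read from within Igf2r toward Mas1 in the mouse, silences the paternal copies of its neighbours, and transcripts beside cardiac transcription factor genes such as Hand2 are tied to the expression of those genes in the developing heart. An assembler also reports transcripts where a gene is missing from the annotation, where an untranslated end runs far past an annotated end, and where reads of an expressed gene fall on its processed pseudogene.

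The sequences that help place the regions are of 2 kinds, both from RefSeq on the build GRCr8, since the regions themselves have coordinates on rn4, whose sequence was not used here. The first kind is the mature form of the miRNAs that lie next to a region. The nearest named locus on one side was a miRNA hairpin with a RefSeq sequence for 8 regions beside 5 hairpins, and their 10 mature miRNAs have 10 distinct seeds. One arm of each hairpin is given 5′ to 3′ with the seed (bases 2 to 8) in capitals. The libraries did not measure mature miRNAs.
rno-miR-21-5p: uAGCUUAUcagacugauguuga
rno-miR-29b-3p: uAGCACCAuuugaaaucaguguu
rno-miR-490-3p: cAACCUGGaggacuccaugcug
rno-miR-421-3p: aUCAACAGacauuaauuggg
rno-miR-582-5p: uACAGUUGuucaaccaguuacu

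The second kind is the 300 bases around the start of a RefSeq long non-coding RNA (250 before and 50 after) that lies between the same 2 genes as a region. One is shown for an interval whose region passed only in fetal ventricle (LOC134486196, between Src and Blcap), and one for an interval whose regions passed only in adult groups (LOC103692012, between Insig1 and Htr5a, the most upstream of its listed starts). Capitals mark, on either strand, the TATA box core TATAAA, the GATA factor motif AGATAA and the GC box GGGCGG. In that order, 14.2%, 11.6% and 33.1% of 33469 RefSeq rat promoters of the same length hold these letters. The marked motifs do not overlap. Whether a region is a transcript of the RefSeq entry was not tested.
LOC134486196, GRCr8 chr3:166586845-166587144, minus strand: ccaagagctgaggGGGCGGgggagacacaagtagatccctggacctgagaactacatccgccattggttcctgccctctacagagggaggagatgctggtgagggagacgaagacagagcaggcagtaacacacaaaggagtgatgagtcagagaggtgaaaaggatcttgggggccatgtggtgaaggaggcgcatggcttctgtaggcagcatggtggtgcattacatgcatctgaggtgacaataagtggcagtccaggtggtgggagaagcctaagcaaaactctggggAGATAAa
LOC103692012, GRCr8 chr4:8135008-8135307, plus strand: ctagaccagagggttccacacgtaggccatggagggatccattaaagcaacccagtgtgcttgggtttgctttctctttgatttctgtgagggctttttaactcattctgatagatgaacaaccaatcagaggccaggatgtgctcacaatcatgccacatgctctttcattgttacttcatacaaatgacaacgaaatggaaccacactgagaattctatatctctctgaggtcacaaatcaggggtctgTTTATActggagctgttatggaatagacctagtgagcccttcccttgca

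The windows differ in what they hold. That of LOC134486196 has the GC box before the start and the GATA motif after it. That of LOC103692012 has the TATA box core on the opposite strand, just after the start used, and no marked motif before that start. Whether such windows differ between fetal and adult intervals was not tested.

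In all, 426 of the 812 regions (52.5%) passed only in fetal ventricle, 122 passed in all 3 groups, 96 in sham and fetal, 85 only in sham, 47 in sham and TAC, 29 only in TAC and 7 in TAC and fetal. No value above 0 in the 812 regions was below 1, so the level threshold acted almost as a demand that the region was assembled in each of the 3 libraries. A level of 0 means that no transcript of 200 nt or more lying outside every reference span was assembled there. A transcript that crossed the region and touched a reference span was not counted. The lowest level above 0 was 1.01 to 1.09 in the fetal libraries, 1.34 to 2.55 in sham and 1.79 to 5.54 in TAC. The fragments implied by the deposited confidence bounds were fewest in TAC libraries (6368109 to 11651256, against 11893090 to 21583597 in sham and 17545249 to 25745128 in fetal). The part of these differences in the counts of each pattern was not tested.

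**Figure D1:**
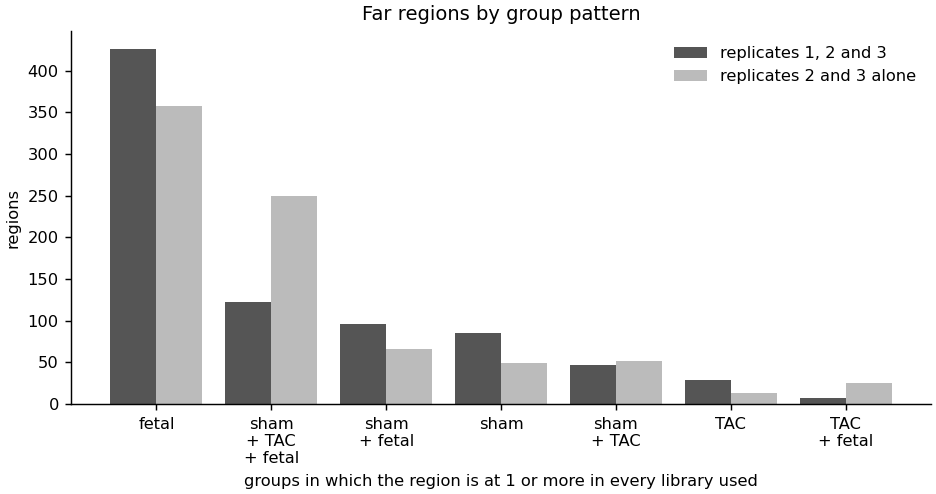
Number of regions (y axis) in each pattern of groups (x axis), with a group counted when every library used was at 1 or more. Dark bars use replicates 1, 2 and 3, and light bars use replicates 2 and 3 of the same 812 regions, where the count for all 3 groups is 249 instead of 122.

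Replicate 1 decided many of the patterns. It was at 0 in more regions than the other libraries of its group in each of the 3 groups (404 against 342 and 331 in sham, 569 against 441 and 363 in TAC, 128 against 101 and 83 in fetal). Its shortest assembled transcripts were 43 nt, against 63 nt in every other library. With replicates 2 and 3 alone, a setting added after seeing the data, 358 of the 812 regions passed only in fetal ventricle, 249 in all 3 groups and 52 in sham and TAC. Of the 426 regions that passed only in fetal ventricle, 28 were at 1 or more in both other replicates of sham and of TAC.

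The structure of the kept regions was set beside that of the other assembled regions. A transcript shorter than its genomic span, hence spliced, was present in 260 of 812 (32.0%), in 234 of 3890 far regions below the level (6.02%) and in 322 of 2654 regions at the level within 10 kb of an annotated span (12.1%). The median longest transcript was 1203 nt in the kept regions, 517 nt in the far regions below the level and 1575 nt in the near ones. The kept regions were assembled in a median of 5 libraries, against 1 and 6 in the other sets, and more libraries give more chances to see a spliced form. By pattern, the spliced share was 61.7% in sham and TAC (29 of 47), 45.1% in all 3 groups (55 of 122) and 23.5% in fetal only (100 of 426). In 8 regions every one of the 9 libraries held a spliced form, among them chr8:75288217-75293034 between Adam10 and Lipc, at 49.99 to 96.9 in sham, 67.8 to 99.8 in TAC and 94.2 to 120 in fetal.

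Distance from the nearest annotated span had a median of 30933 bp and reached 709326 bp. The 3 regions just inside the distance threshold lay 10044, 10052 and 10120 bp away, and the 3 just outside, at the same level, 9991, 9970 and 9906 bp. The lowest library of the best group was at 1.01, 1.02 and 1.05 in the 3 regions just inside the level threshold and at 0.992, 0.982 and 0.955 in the 3 just outside. The farthest region, chr2:131504990-131506131, was at 26.7, 115 and 81.7 in sham, 46.0, 57.6 and 16.3 in TAC and 11.2, 13.0 and 17.1 in fetal. The longest span was 309631 bp (chr6:60921028-61230658, with Lrrn3 on its left), and its longest transcript was 746 nt.

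Regions of the fetal ventricle come first. A level of 0 in all 6 adult libraries was found for 231 of the 426 regions (54.2%), with a median fetal mean of 4.37, and 33 of them had a fetal mean of 10 or more. A run of 6 such regions lies beside Scrg1 on chromosome 16, from 36250227 to 36296065. All 6 were at 0 in the 6 adult libraries. The main one, chr16:36256062-36285297, was at 39.5, 43.2 and 62.6 in the fetal libraries (mean 48.4 ± 12.4, SD, n = 3), with a longest transcript of 10413 nt and a spliced form in 2 of the 3 libraries. Summed, the 6 regions reached 59.0, 64.5 and 89.8 in the fetal libraries. The run was named after these values were seen, so its 0 in adults carries no test. The files place Sap30 on the far side of Scrg1, and in RefSeq (GRCr8) the next protein-coding gene past Scrg1 away from Sap30 is Hand2, a transcription factor needed for ventricle formation, with 4 long non-coding RNAs and 1 tRNA gene between them. The locus on the right of the run, 28258 bp away, has no symbol in the files, and its identity was not tested.

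A second run lies beside Irx3, a homeobox transcription factor of the ventricular conduction system. Here 8 regions passed only in fetal ventricle, 7 of them within 65.9 kb, the nearest 135323 bp from Irx3. The remaining region, chr19:15803875-15805069, lies 538842 bp from Irx3 and only 41586 bp from RGD1565975 on its other side. Of the 8, 6 were at 0 in every adult library, and the highest of these, chr19:16194615-16202732, was at 6.04, 10.1 and 10.3 in fetal. The 2 others were not silent in sham: chr19:16158760-16171853 was at 42.4, 20.8 and 0 in sham, 0 in the 3 TAC libraries and 14.4, 11.9 and 17.3 in fetal, so its highest values are in sham. Irx3 itself was at 21.8, 19.97 and 18.8 in sham and 5.38, 15.9 and 11.9 in fetal, and did not pass the test (log2 difference -0.92, adjusted p = 0.0717, limma with Benjamini-Hochberg adjustment).

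**Figure D2:**
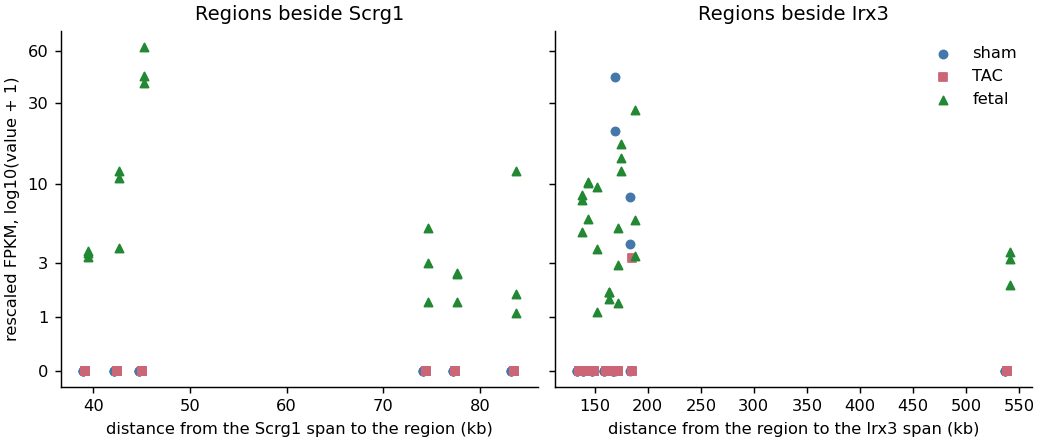
Rescaled FPKM (y axis, drawn as log10 of the value plus 1) of each region in each library against its distance in kb from the Scrg1 span (left) or the Irx3 span (right); blue circles are sham, red squares TAC and green triangles fetal, set slightly apart sideways. Beside Scrg1 every adult point is at 0 and the fetal points reach 62.6, and beside Irx3 some sham points are above the fetal ones.

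Other developmental transcription factor genes also had regions as neighbours. The list of 49 heart transcription factors, 27 of them found by symbol, had a member next to 13 regions (1.60% of 812). Next to means the first reference locus on either side, at any distance, here up to 538842 bp. All 13 passed only in fetal ventricle, as did 52.5% of all kept regions, and 7 of the 13 belong to the 1 run at Irx3. Besides the 8 at Irx3, these were 2 beside Nr2f1 and 1 beside Nr2f2, nuclear receptors of atrial and venous identity, and 2 beside Msx2, a homeobox gene of cushion and outflow tissue. The 2 beside Msx2 lie 212990 and 211841 bp from it, with a U4 locus nearer on the other side. They were at 0 in all adult libraries and at 3.57, 9.73 and 8.21 and at 4.42, 2.39 and 2.84 in fetal. Other members of the list had adult values. The Nr2f2 region, chr1:125325297-125329656, was at 0, 12.8 and 6.14 in TAC, 0 in sham and 15.3, 8.62 and 4.09 in fetal. Of the 2 at Nr2f1, chr2:5850719-5857954 was at 5.36, 2.56 and 0 in sham, 0 in TAC and 9.72, 11.7 and 8.3 in fetal, and chr2:5799115-5850564 at 0 in all adult libraries and 2.72, 2.29 and 2.53 in fetal. The list of 53 heart muscle genes, 16 found by symbol, had a member next to 2 regions, both beside Ankrd1, a stress-responsive titin-binding protein of muscle, and both fetal only at low levels: chr1:240335373-240336823 was at 2.5, 2.22 and 3.42 in fetal and at 4.19 and 4.96 in 1 sham and 1 TAC library. Ankrd1 was lower in fetal than in sham (log2 difference -1.47, adjusted p = 0.00529, limma with Benjamini-Hochberg adjustment).

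The fetal-only region with the highest level among those at 0 in all adults was chr1:110708296-110708520, 19541 bp from Ube3a, the ubiquitin ligase imprinted in neurons. Its levels were 344, 1067 and 825 in fetal, carried by 266, 876 and 501 fragments. Its one transcript measures 224 nt, and a short transcript gets a high FPKM from few fragments: in single-transcript loci of 200 to 250 nt the deposited FPKM divided fragments by a median of only 26.3 to 68.5 nt, depending on the library. Ube3a was 1.51 higher in fetal than in sham on the log2 scale (adjusted p = 0.000323, limma with Benjamini-Hochberg adjustment). A longer example is chr8:26953732-26963500, 12676 bp from Igsf9b, with a 5684 nt transcript at 17.0, 14.6 and 24.9 in fetal and 0 in every adult library.

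Of the 5 hairpins named above, 4 stood beside fetal-only or sham and fetal regions. The 2 regions left of rno-mir-421, a miRNA from the non-coding Ftx gene of the X inactivation centre, lie 20802 and 16448 bp from it. The farther one, chrX:91536244-91542613, has a 6328 nt transcript and was at 17.1, 4.66 and 2.47 in fetal, at 6.42 in 1 sham library and at 0 in the 5 other adult ones. A region 31476 bp from rno-mir-490, made in the heart from the muscarinic receptor gene Chrm2, was at 1.41, 4.09 and 5.45 in fetal and 0 in all adults. Regions 69078 and 92425 bp from rno-mir-582 were likewise at 0 in all adults and at 1.47 to 5.45 in fetal. The region 13864 bp from rno-mir-21, a miRNA of stressed myocardium, passed in sham and fetal at low levels: 16.8, 17.3 and 8.33 in sham, 21.6, 0 and 4.13 in TAC and 5.78, 4.72 and 6.49 in fetal. The fifth hairpin, rno-mir-29b-1, a miRNA that represses collagen genes, had 2 regions on the side of Mkln1, much farther away, at 329600 and 347554 bp. The nearer, chr4:58437820-58445037, was at 30.2, 22.6 and 94.5 in sham, 0, 11.4 and 17.7 in TAC and 0, 0 and 2.13 in fetal. The farther, chr4:58455774-58462958, was at 50.9, 10.2 and 3.81 in sham, 23.3, 18.8 and 9.92 in TAC and 0 in all 3 fetal libraries.

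Regions of the adult ventricle were fewer. A pattern without the fetal group was found for 161 regions, of which 59 (36.6%) were at 0 in all 3 fetal libraries, 18 of these passing in both adult groups. An abundant one with a long transcript was chr6:77392138-77428702, right of Slc25a21, a mitochondrial carrier: 224, 27.8 and 177 in sham, 449, 103 and 51.9 in TAC and 0, 0 and 2.99 in fetal, with a longest transcript of 7556 nt. The adult libraries lie above the fetal ones throughout, but spread over more than an order of magnitude among themselves. The region chr4:2616806-2618401, in the interval of LOC103692012, was at 19.5, 12.9 and 8.83 in sham, 13.2, 12.5 and 8.15 in TAC and 0 in the 3 fetal libraries. Insig1 beside it, a brake on sterol synthesis, did not pass the test between fetal and sham (log2 difference -0.53, adjusted p = 0.0846, limma with Benjamini-Hochberg adjustment), and Htr5a, a serotonin receptor, was listed at 0 in all 9 libraries.

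Only 29 regions passed in TAC alone, and 1 of them was at 0 in all sham libraries. That region, chr20:2870313-2871300, was at 196, 53.9 and 17.5 in TAC and at 3.82 in 1 fetal library, and the highest of these values, in TAC replicate 1, rests on the fewest fragments of the 3, 22.3. Of the 85 regions passing in sham alone, 12 were at 0 in all TAC libraries, the libraries with the fewest fragments.

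**Figure D3:**
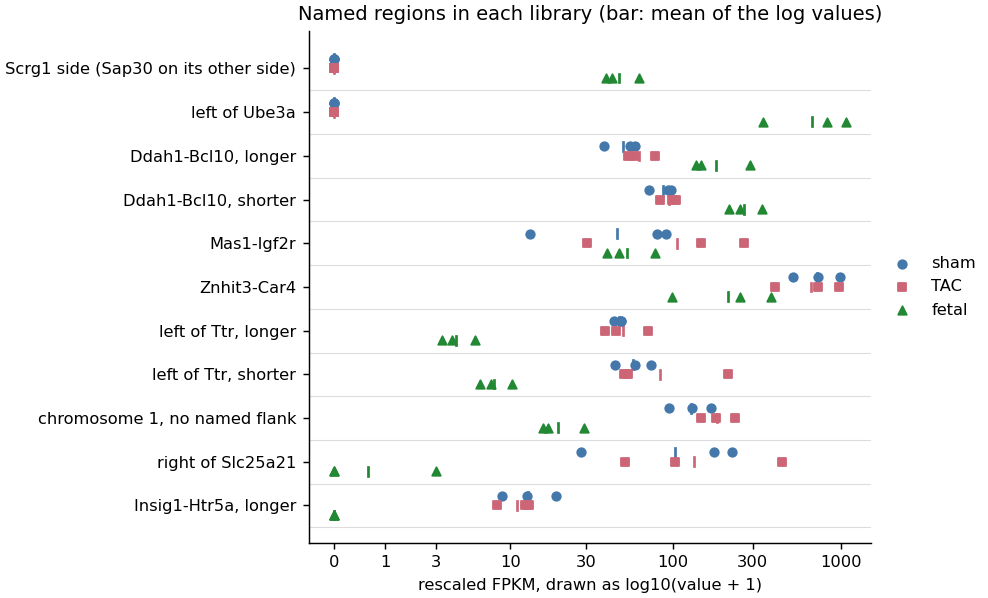
Rescaled FPKM of 11 named regions (x axis, drawn as log10 of the value plus 1) in each of the 9 libraries, labelled by their flanking genes; blue circles are sham, red squares TAC, green triangles fetal, and short bars the mean of the log values. The 2 regions at the top are at 0 in every adult library, and the 2 beside Ttr are below 11 in every fetal library and above 38 in every adult one.

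The 122 regions at 1 or more in all 9 libraries were compared between groups by a test, since each met the same demand in every group. That demand uses the levels that were tested, and the lowest level above 0 differed between groups (above). The choice is therefore not independent of the test. The test was limma on log2(FPKM + 1), fitted over 19824 features (reference loci and assembled regions) with Benjamini-Hochberg adjustment, and a region is called when its adjusted p is below 0.05. Between fetal and sham, 4 regions were higher in fetal and 29 lower, where 18.2% and 16.9% of all features were called higher and lower. Between fetal and TAC, 4 were higher in fetal and 33 lower, against 19.2% and 17.5% of all features. The comparisons share the fetal libraries, so they are not independent. The median log2 difference of the 122 was -0.67 from sham and -1.0 from TAC, against 0.0018 and 0.03 over all features. The fit held 5609 assembled regions, most of them not present in every library. They were called higher 823 times and lower 370 times against sham, and higher 930 times and lower 494 times against TAC. Entry to the fit did not ask for every library, so a region at 0 in all adult libraries could enter. That entry uses the levels tested, so these counts are no yardstick for the 122. The 341 assembled regions within 10 kb of an annotated span and, like the 122, at 1 or more in all 9 libraries are closer in choice. They had 4 higher and 62 lower against sham and 5 higher and 99 lower against TAC, with medians of -0.76 and -1.16. The lean to lower values is thus shared by near and far regions present in every library. The lowest level that gave an assembled region was higher in adult libraries (above), and its part in this lean was not tested. Between TAC and sham limma called 0 of 122, with 5 at an unadjusted p below 0.05, where 0.126% and 0.111% of all features were called higher and lower.

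A region's level is the sum over its assembled transcripts, so a pile of short fragments of a transcript can weigh as much as its full length. When each transcript's FPKM was weighted by its length, 12 regions were higher and 38 lower in fetal than in sham (18.7% and 17.7% of all features), and 11 higher and 34 lower than in TAC (19.6% and 17.6%). The median log2 difference of the 122 was then -0.56 from sham and -0.35 from TAC. Of the regions called on the summed level, 28 of 33 and 27 of 37 were called in the same direction on the weighted one.

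**Figure D4:**
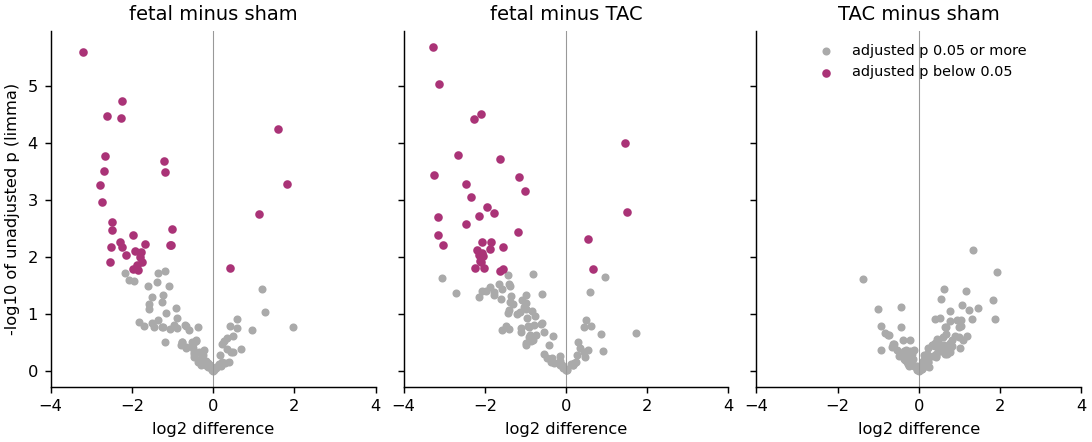
The 122 regions present in all 9 libraries in the 3 comparisons, with the log2 difference on the x axis and the -log10 of the unadjusted p from limma on the y axis; coloured points have an adjusted p below 0.05. In both fetal comparisons most coloured points lie left of 0 (29 and 33 against 4 and 4), and TAC minus sham has none.

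The clearest rise in fetal ventricle was in a pair of adjacent regions between Ddah1, an enzyme that degrades the nitric oxide synthase inhibitor dimethylarginine, and Bcl10, an adaptor of NF-kB signalling. The longer, chr2:244067822-244069833, was at 59.7, 55.5 and 38.7 in sham, 78.5, 58.7 and 53.8 in TAC and 147, 137 and 289.7 in fetal. It rose by 1.82 on the log2 scale over sham (SE 0.32, adjusted p = 0.00326) and by 1.51 over TAC (adjusted p = 0.00771, limma with Benjamini-Hochberg adjustment). The shorter, chr2:244070583-244071276, was at 72.2, 93.4 and 98.3 in sham, 84.1, 104 and 99.4 in TAC and 216, 252 and 342 in fetal, a rise of 1.59 over sham (SE 0.20, adjusted p = 0.000656) and 1.46 over TAC (adjusted p = 0.00098, limma). The fetal libraries lie above all adult ones in both regions. Ddah1, 34945 bp from the nearer one, rose by 2.53 over sham (adjusted p = 0.000128, limma), and Bcl10 by 0.63 (adjusted p = 0.00607, limma). RefSeq lists no gene that lies wholly between them.

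The next rise, chr2:34538326-34541303, spliced in 8 libraries, was from 30.7 ± 8.63 in sham to 67.9 ± 15.5 in fetal (SD, n = 3 each), 1.14 on the log2 scale (adjusted p = 0.00821, limma). The last of the 4 against sham, chrX:15625159-15626633, was small, from 117 ± 20.7 to 156 ± 7.32 (SD, n = 3 each), 0.42 on the log2 scale (adjusted p = 0.0462, limma), and was lost under 15 of 20 alternative settings, among them the replicate block (adjusted p = 0.065). A rise over TAC in chr15:34719092-34720663 was of like size (log2 difference 0.66, adjusted p = 0.0459, limma) and was lost under 16 of 20, the block among them (adjusted p = 0.0604).

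The deepest fall in fetal ventricle was beside Ttr, the gene of the thyroid hormone and retinol carrier transthyretin. The region chr18:12384862-12391248 was at 44.1, 48.7 and 49.0 in sham, 71.5, 45.4 and 39.0 in TAC and 3.35, 5.79 and 3.97 in fetal, with a spliced transcript in all 9 libraries and a longest form of 2635 nt. It fell by 3.19 from sham (log2 difference -3.19, SE 0.25, adjusted p = 9.44e-05) and its log2 difference from TAC was -3.28 (adjusted p = 8.33e-05, limma with Benjamini-Hochberg adjustment). Its neighbour chr18:12391786-12392739 was at 44.9, 59.0 and 73.8 in sham, 215, 53.9 and 50.9 in TAC and 10.3, 6.31 and 7.45 in fetal (log2 difference -2.74 from sham, adjusted p = 0.00568, limma). Ttr, 13570 bp farther on, was at 41.5, 53.4 and 35.7 in sham and 2.89, 1.76 and 2.27 in fetal (log2 difference -3.75, adjusted p = 6.15e-05, limma). No adult value of the 3 overlaps a fetal one. In RefSeq, 2 long non-coding RNAs lie between Dsg2, a desmosomal cadherin of muscle, and Ttr.

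A further fall had no named gene near it. The region chr1:168925867-168932453, 85403 bp from the nearest span and spliced in all 9 libraries, was at 131, 169 and 94.4 in sham, 148, 235 and 181 in TAC and 16.1, 17.5 and 29.0 in fetal (log2 difference -2.61 from sham, adjusted p = 0.000464, and -3.13 from TAC, adjusted p = 0.0002, limma). Its neighbour chr1:168937994-168938351 was at 71.9 to 116 in the 6 adult libraries and 0 in the 3 fetal ones. A region 37999 bp from the locus named GREM1_RAT, chr3:99559654-99560839, was at 870.4, 285 and 348 in sham, 408, 323 and 413 in TAC and 81.7, 84.0 and 46.4 in fetal (log2 difference -2.68 from sham, adjusted p = 0.00216, limma). A low-level fall was in chr9:102232709-102236543, at 12.5, 26.6 and 24.0 in sham, 33.3, 17.8 and 13.6 in TAC and 2.12, 2.5 and 2.41 in fetal (log2 difference -2.65 from sham, adjusted p = 0.00139, limma). The region chr5:171535060-171554327, between Actrt2 and Ttc34 and spliced in 7 libraries, was at 37.7, 25.7 and 142 in sham, 75.8, 141 and 50.1 in TAC and 4.68, 13.2 and 8.63 in fetal (log2 difference -3.16 from TAC, adjusted p = 0.00897, limma), while Actrt2 was listed at 0 everywhere and Ttc34 in 8 of 9 libraries.

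The nearest reference locus was itself tested for 74 of the 122 regions. Across these 74 the fetal minus sham differences of region and locus had a Pearson correlation of 0.41, a description over features of the same libraries. Of 21 called regions with a tested nearest locus, 9 had that locus called in the same direction. For fetal minus TAC the correlation was 0.34, with 12 of 27 called in the same direction and 1 in the opposite one.

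The region between Mas1 and Igf2r shows how the value depends on assembly. Igf2r, the scavenger receptor for Igf2 and an imprinted gene, was at 40.7, 48.7 and 50.9 in sham, 45.2, 58.5 and 53.9 in TAC and 384, 184 and 163 in fetal (log2 difference 2.26 from sham, adjusted p = 0.00103, limma with Benjamini-Hochberg adjustment). The region, chr1:42197539-42236595, holds the longest transcript of all members, 20724 nt, in fetal replicate 2. The longest transcripts of the other fetal libraries were 15034 and 9206 nt, and those of the 6 adult libraries 1362 to 6012 nt. On the summed level the groups overlapped: 90.8, 13.3 and 80.3 in sham, 267, 30.5 and 147 in TAC and 78.0, 47.6 and 40.2 in fetal, with a log2 difference of 0.19 from sham (adjusted p = 0.91, limma). Weighted by length the values were 3.06, 1.83 and 2.49 in sham, 4.76, 1.3 and 2.86 in TAC and 19.6, 25.7 and 7.22 in fetal, without overlap between fetal and adult. The log2 difference was then 2.27 from sham (adjusted p = 0.00982) and 2.16 from TAC (adjusted p = 0.0123, limma with Benjamini-Hochberg adjustment). In RefSeq the interval holds long non-coding RNAs and no protein-coding gene.

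**Figure D5:**
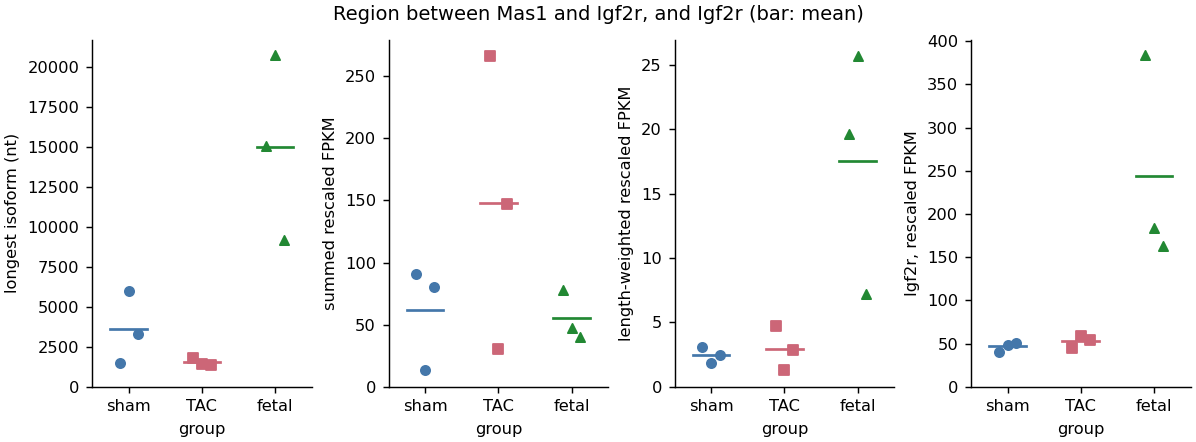
The region between Mas1 and Igf2r in each library: its longest transcript in nt, its summed and its length-weighted rescaled FPKM, and the rescaled FPKM of Igf2r (y axes, from 0) by group (x axis), with bars at the mean of 3 libraries. The fetal libraries are the highest 3 in the panels of transcript length, length-weighted level and Igf2r, and lie within the adult range in the panel of the summed level.

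The regions at Mas1 and Igf2r and at Ube3a had a neighbour on the list of imprinted genes and non-coding RNA domains (32 genes, 18 found by symbol). Another such region, chr1:203736859-203803919, lies right of the potassium channel gene Kcnq1 and 31308 bp left of the locus Q69DC1_RAT. It was even across groups (36.9 ± 6.71 in sham, 44.1 ± 14.5 in TAC and 28.3 ± 4.86 in fetal, SD, n = 3 each), while Q69DC1_RAT was at 3.72 to 7.999 in sham and 123 to 163 in fetal.

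Some intervals hold pseudogenes of expressed genes. Both flanking genes could be placed in RefSeq for 118 of the 812 regions. Of these intervals 58 held a long non-coding RNA (49.2%), 28 a pseudogene (23.7%) and 42 no entry (35.6%). The shares among the 580 placed far regions below the level were 50.5%, 24.0% and 36.6%, and among the 679 placed near ones 18.7%, 9.72% and 71.7%. The far regions, kept or not, had close to the same shares.

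A parent gene with a locus in the files could be set beside the region in 14 pairs (13 regions, 12 parents). The fetal mean differed from the sham mean in the same direction for region and parent in 8 pairs and in opposite directions in 6, with no test. Pairs of both kinds follow, chosen after their values were seen. The region between Znhit3 and Car4, chr10:73203953-73204418, in an interval with Cox7b-ps4, was at 521, 736 and 984 in sham, 408, 727 and 972 in TAC and 99.1, 250.3 and 384 in fetal (log2 difference -1.76 from sham, adjusted p = 0.0379, limma, lost under 10 of 20 alternative settings). Cox7b, a subunit of cytochrome c oxidase, was at 1492, 1600 and 919 in sham and 499, 407 and 314 in fetal (log2 difference -1.70, adjusted p = 0.00213, limma), and Car4, a membrane carbonic anhydrase on the other side, also fell (log2 difference -4.89, adjusted p = 9.07e-06, limma). The region between Cd8b and Cd8a, chr4:104565066-104565772, with Tuba1b-ps8 as the one entry of its interval, was at 0, 135 and 234 in sham, 0, 128 and 179.8 in TAC and 270.1, 184 and 137 in fetal. Its higher fetal mean rests on replicate 1, since in replicates 2 and 3 the fetal values lay within the sham range. Tuba1b, an alpha-tubulin, was at 306, 222 and 188 in sham and 864, 1511 and 806 in fetal, while Cd8a stayed at 1.06 to 6.14 in all libraries. The region between Tm4sf1 and Tm4sf4, chr2:146614291-146617035, with Mcm4-ps1 among its entries, was at 6.51, 4.22 and 5.55 in sham, 19.9, 16.9 and 0 in TAC and 25.1, 35.0 and 48.5 in fetal, and Mcm4, a subunit of the replicative helicase, at 4.42, 3.11 and 3.24 in sham and 59.7, 36.6 and 47.1 in fetal. In other pairs the means differed in opposite directions. The region chr14:70845740-70846076, between Qdpr and Ldb2 in an interval with Kdelr1-ps1, had a mean of 52.9 in sham and 590 in fetal, where Kdelr1, a retrieval receptor for endoplasmic reticulum proteins, had 116 and 102. The region chr1:216196293-216197151, in an interval with Cct7-ps1, had a mean of 16.5 in sham and was at 0 in fetal, where Cct7, a chaperonin subunit, had 70.3 and 126. Reads of a parent gene and its pseudogene can be assigned to either, and their part in these levels was not tested.

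Among the regions with the highest levels short ones were more frequent than over all members, while unspliced ones were not. Of all 812, 96 had no transcript of 500 nt or more, and 260 (32.0%) had a spliced one. The top 8 by mean held 40.4% of the summed mean level of all 812, and of the top 20, 10 had no transcript of 500 nt or more and 13 no spliced one. The first, chr7:956231-957193, was at 13436, 879 and 3253 in sham, 9199.5, 2754 and 6037 in TAC and 8197, 1191 and 0 in fetal, so its fetal values alone span 0 to 8197. The region chrX:148642184-148642455, of 271 nt and 231734 bp from its nearest span, a U6 locus, was at 2146, 3949 and 8201 in sham, 2381, 1377 and 1215 in TAC and 631, 545 and 603 in fetal (log2 difference -2.79 from sham, adjusted p = 0.00339, limma). Every adult value exceeds every fetal one. The region chr9:87632738-87633141, 13674 bp from Arl4c, was at 0, 672 and 435 in sham, 0, 1093 and 904 in TAC and 1565, 1307 and 2285 in fetal; it counts as fetal only because replicate 1 was at 0 in both adult groups.

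In the TAC comparison no named region passed the test. The smallest p belonged to chr8:84917086-84918279, 14213 bp from Filip1, which binds filamin A, at 13.0, 12.6 and 21.5 in sham and 49.2, 43.0 and 30.4 in TAC (log2 difference 1.34, SE 0.37, adjusted p = 0.81, limma). The TAC libraries lie above the sham ones without overlap, and the fetal libraries, at 8.61, 19.4 and 8.02, do not. The next was chr1:122213717-122215779, at 8.99, 10.3 and 9.77 in sham and 15.9, 118 and 31.5 in TAC (log2 difference 1.92, adjusted p = 0.93, limma).

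Along the chromosomes, 37 runs of 3 or more members less than 50 kb apart held 144 of the 812 (17.7%). This share was not set against other regions or a random placing. With regions up to 1 kb apart merged, the rule kept 675, and whether members of a run are parts of the same transcript was not tested. Besides the runs at Irx3 and Scrg1, a run of 6 fetal-only regions lies right of Kcnrg (13672 bp away), with sums of 34.2, 28.9 and 36.3 in fetal and at most 13.5 in an adult library. Another run of 6 lies 232749 bp left of Cyp26b1, an enzyme that clears retinoic acid, with sums of 43.7, 82.1 and 48.6 in fetal, 45.1, 0 and 3.77 in sham and 0, 0 and 15.6 in TAC. The other runs of 6 were mixed. Those at chr17:7874958-7917686 and chr3:296447-383508 each held 5 fetal-only regions and 1 region that passed in sham or in sham and fetal. That at chr2:34536905-34595395 held 3 fetal-only regions and 3 that passed in all 3 groups. Its sums were 129, 76.5 and 206 in sham, 137, 161 and 194 in TAC and 192, 183 and 232 in fetal.

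The tissue labels were checked on marker lists. Of 12 cardiomyocyte markers 2 were found by symbol, Actc1 and Mb, with sums of 41766 to 46461 in sham, 42386 to 48581 in TAC and 14920 to 138916 in fetal. The 5 macrophage markers found summed to 252 to 423 in sham, 259.97 to 421 in TAC and 48.1 to 56.1 in fetal, and the 3 erythroid ones to 5088 to 11360 in sham, 5026 to 10211 in TAC and 17268 to 27529 in fetal. Ttr is also one of the 3 liver markers found (Afp, Alb, Ttr), whose sum of 35.7 to 53.4 in sham equals the range of Ttr alone. The 3 lung markers were at 0 in adult libraries and at most 0.374 in fetal. The 5 fibroblast markers found summed to 1011 to 1539 in adult libraries and 363 to 578 in fetal, the 5 lymphocyte markers to 27.0 to 36.4 and 4.24 to 5.15, and the 2 epicardial markers to 6.5 to 11.9 and 19.5 to 30.3. The fetal and adult libraries therefore do not overlap in macrophage, fibroblast, lymphocyte, erythroid or epicardial markers, and the part of these in the levels of the regions was not tested.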

How the data were processed

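The authors deposited, for each of 9 libraries, FPKM per gene and per isoform with confidence bounds. Per the submitters' processing notes, reads were processed with TopHat 1.3.1, Cufflinks 1.0.3 and Cuffdiff on rn4; each library was assembled separately. The preparation named in the labels does not mark strand. From the files were computed: regions and distances (starts counted from 1), rescaled FPKM (median of ratios, mean library sum 1000000), fragments implied by the bounds (90.4% to 96.4% of low values whole within 0.05, in single-isoform loci), and, for regions at 1 or more in all 9 libraries, limma 3.58.1 (R 4.3.3) with a mean-variance trend on log2(FPKM + 1) over features at 1 or more in 3 libraries, checked on simulated data. Members and lists were chosen with earlier results of these data known. Regions were named by a rule: highest means, largest called differences, threshold neighbours, farthest, longest, runs and listed neighbours. Others, named after their values were seen, are those beside miRNAs, Scrg1, Adam10, Igsf9b and Mkln1, in pseudogene intervals, and chr1:168937994-168938351. Libraries of the same number deviated together (correlations 0.15 to 0.45 over all features, 0.0044 to 0.21 over the 122 regions). For number 1 the correlations were 0.41 to 0.45. For numbers 2 and 3 they were 0.15 to 0.21, against 0.088 to 0.22 between a library numbered 2 and one numbered 3. Replicate 1 thus stood apart, and a pairing of the others by number was not shown. A fit with a block for the number is an alternative. Alternatives also changed distance, level, length, merging, scaling, pseudocount, filter, trend and libraries.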

Additional observations from a re-analysis of the deposited data

How the results depend on the processing

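The rule kept 283 regions with a distance above 50 kb, 480 with transcripts of 500 nt or more and 1682 with replicates 2 and 3 alone, and between 836 and 1532 when 1 library was left out, the highest without fetal replicate 1. When a library is left out, the rule asks only for the remaining libraries of its group, a looser demand that by itself lets more regions pass. Other settings kept 675 to 1144. Of the 122 regions, length weighting called 50 between fetal and sham instead of 33. A fit on assembled regions alone, which tests fewer features, called 11 and 12 (fetal minus sham, fetal minus TAC). Leaving out 1 library gave 18 to 35 calls for fetal minus sham (18 without fetal replicate 1, 20 without fetal replicate 2) and 23 to 39 for fetal minus TAC (23 without fetal replicate 2), against 37. With the replicate block the calls were 34 and 40, and no named call but that of chrX:15625159-15626633 from sham and chr15:34719092-34720663 from TAC was lost. TAC minus sham had 0 calls under all 20 settings tried. The region between Mas1 and Igf2r changed sign from sham without sham replicate 2 and without fetal replicate 1 (log2 difference -0.08). Leaving out 1 library gave -0.68 to 0.66. From TAC the sign of this region changed when length-weighted (2.16). Its implied fragments, not corrected for depth, were 381, 257 and 346 in sham, 197, 85.0 and 247 in TAC and 6848, 6852 and 1966 in fetal. The cause of these sign changes was not tested. Both regions beside Ttr and the shorter one beside Ddah1 were called in both fetal comparisons under all 20 settings. Shallow TAC libraries limit what a 0 there shows.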
